A study of Mus musculus with 12 samples.

Results

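Car2, Car3, Car4, Car8 and Car14 are the carbonic anhydrase genes described here in the tibialis anterior of mice, which lifts the foot and consists largely of fast fibres. They were picked by name from the gene symbols of the count files, with their levels in the 3 groups already known, and are 5 of 16 carbonic anhydrase genes and 5 of 26264 genes in all. Their own values are therefore given as a description without a test. RNA was sequenced in 12 libraries. In 4 of them the left muscle had received 50 µl of a matrix gel at 6 mg per ml, in 4 the right muscle had received 50 µl of phosphate-buffered saline (PBS), the vehicle, and 4 came from uninjured muscle. The side of the body goes with the treatment, so side and treatment cannot be told apart. Gel and PBS libraries of the same number were read as the left and right leg of the same animal, from the deposited names and not from a statement in the labels, and uninjured muscle came from animals with other numbers. The title speaks of acute and of chronic disuse injury. The sources used here do not give strain, sex, age, the kind of injury or the time of collection.

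Library totals were 15626086 to 22182483 counts in gel muscle, 16714543 to 20488409 in PBS muscle and 15970781 to 18787964 in uninjured muscle. On the first principal component gel library 3, at 5.39, lay nearer to PBS muscle (17.2 to 46.5) than to its own group (-67.4 to -91.4 in the other 3). All 9 markers of fast fibres were present, with a summed level of 114019 to 181773 CPM (counts scaled to a common library total) in gel muscle, 180336 to 196903 CPM in PBS-treated muscle and 200415 to 227671 CPM in uninjured muscle. The 8 macrophage markers summed to 74.4 CPM in gel library 3 and to 813 to 1251 CPM in the other gel libraries, against 18.6 to 39.7 CPM in PBS-treated muscle and 30.7 to 62.6 CPM in uninjured muscle. In bulk tissue, fewer cells of a type and less RNA per cell cannot be told apart.

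Carbonic anhydrases are zinc enzymes that convert carbon dioxide and water into bicarbonate and a proton, and back. In working muscle they speed the exit of carbon dioxide, buffer protons made by glycolysis and move protons alongside lactate carriers. Some family members lie in the cytosol, some face the outside of the cell from a membrane, and a few have lost the zinc site and with it the catalysis.

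The catalytic members share a zinc site. Each line below is a stretch of coding sequence from the GENCODE M21 transcripts, 5′ to 3′ on the coding strand, shown because it holds the codons at the positions of a pair of the zinc-binding histidines. Those codons are in capitals.
Car2: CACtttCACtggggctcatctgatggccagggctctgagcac
Car3: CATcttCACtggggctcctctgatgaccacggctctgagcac
Car4: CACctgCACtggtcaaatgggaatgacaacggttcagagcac
Car14: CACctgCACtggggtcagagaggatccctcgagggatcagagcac
The stretches of Car2, Car3, Car4 and Car14 were located by this pair of histidines, so both capitalised codons encode histidine by construction. Car8 was not searched. Whole coding sequences were aligned, and identity was taken over the aligned bases, without those opposite a gap. Between members it was 60.4% to 68.0% in the 10 possible pairs, and was highest between Car2 and Car3. The longest identical stretch between transcripts of any pair was 10 to 16 bases.

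**Figure D1:**
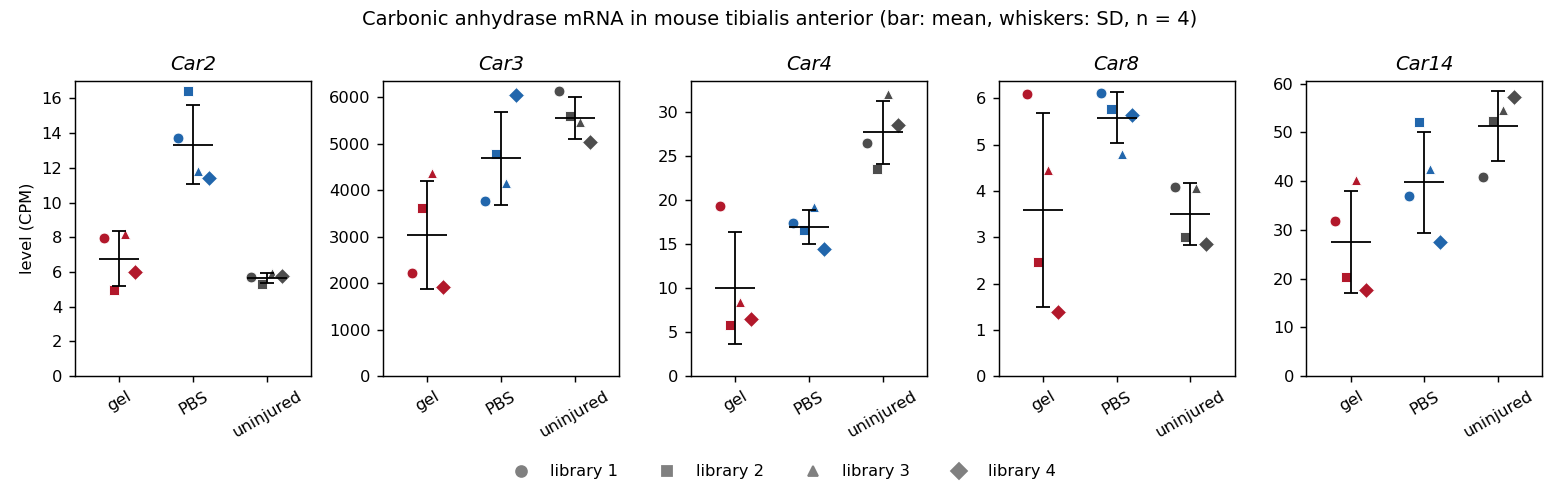
Level of each of the 5 genes in every library, in CPM on linear axes from 0, with gel at left, then PBS, then uninjured; points are libraries 1 to 4, bars are group means and whiskers are SD (n = 4). The PBS libraries stand highest for Car2, and the gel means are lowest for Car3, Car4 and Car14, with gel library 1 at 19.4 CPM above the other gel libraries for Car4.

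Car3 was by far the most abundant member. It encodes a cytosolic enzyme of low carbon dioxide hydration activity, known in rat and human muscle as a protein of slow fibres and in mice also for its abundance in fat. Levels in libraries 1 to 4 were 2208, 3615, 4370 and 1919 CPM in gel muscle, 3756, 4771, 4149 and 6046 CPM in PBS-treated muscle, and 6132, 5591, 5462 and 5031 CPM in uninjured muscle. Every gel library lay below every uninjured library, whereas PBS libraries overlapped both other groups. The transcript took 0.238% to 0.422% of all counts in gel libraries, 0.371% to 0.603% in PBS libraries and 0.475% to 0.574% in uninjured libraries. Mean levels were 3028 ± 1162 CPM in gel muscle, 4681 ± 1002 CPM in PBS-treated muscle and 5554 ± 454 CPM in uninjured muscle (SD, n = 4 each). Log2 fold changes were -0.63 ± 0.23 (SE) for gel over PBS, -0.88 ± 0.23 for gel over uninjured and -0.25 ± 0.23 for PBS over uninjured. Gel library 3, at 4370 CPM, was the highest of its group, and without it the gel-over-PBS value was -0.87. The PBS-over-uninjured value was -0.15 without PBS library 1 and -0.40 without PBS library 4. The 8 slow-fibre markers summed to 148 to 255 CPM in gel muscle, 123 to 215 CPM in PBS-treated muscle and 115 to 363 CPM in uninjured muscle. Of 8 adipocyte markers only 3 could be tested, with a median log2 fold change of 0.51 for gel over PBS, 1.04 for gel over uninjured and -0.07 for PBS over uninjured. Plin4, which muscle fibres also express, averaged 188 CPM in gel muscle, 207 CPM in PBS-treated muscle and 783 CPM in uninjured muscle and made up most of the summed level. Cfd averaged 3.49 CPM in gel muscle, 1.59 CPM in PBS-treated muscle and 1.69 CPM in uninjured muscle. Adipoq averaged 0.733 CPM in gel muscle, 0.515 CPM in PBS-treated muscle and 0.289 CPM in uninjured muscle. Cfd and Adipoq thus had their highest means in gel muscle, and Plin4 its lowest. The part of slow fibres or fat in the Car3 levels was not tested.

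Car2 differed from Car3 in that PBS muscle stood highest. The gene encodes the fast cytosolic enzyme, which is also abundant in red blood cells and osteoclasts. Levels were 7.97, 4.97, 8.18 and 5.97 CPM in gel muscle, 13.7, 16.4, 11.8 and 11.4 CPM in PBS-treated muscle, and 5.68, 5.28, 5.95 and 5.76 CPM in uninjured muscle. All PBS libraries exceeded all gel and all uninjured libraries, and gel libraries overlapped uninjured ones. Means were 6.77 ± 1.56 CPM in gel muscle, 13.3 ± 2.29 CPM in PBS-treated muscle and 5.67 ± 0.282 CPM in uninjured muscle (SD, n = 4 each). These correspond to log2 fold changes of 1.23 ± 0.19 (SE) for PBS over uninjured, -0.98 ± 0.18 for gel over PBS and 0.25 ± 0.19 for gel over uninjured. When single libraries were left out, the PBS-over-uninjured value stayed between 1.12 and 1.30 and the gel-over-PBS value between -1.10 and -0.87, while gel over uninjured was 0.14 without gel library 3. Counts behind these levels were 105 to 164 per gel library, 190 to 302 per PBS library and 88 to 100 per uninjured library.

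Since Car2 is known from red cells and osteoclasts, their markers were set beside it. Of 8 erythroid markers, the globin genes Hba-a1, Hba-a2, Hbb-bs and Hbb-bt and the globin chaperone Ahsp were listed at 0 in all 12 libraries. Whether reads of these genes were counted is not known, so the 0 is not read as absence of blood. The 3 erythroid markers with a count, led by the haem synthesis gene Alas2, summed to 3.69 to 8.20 CPM in gel muscle, 4.56 to 12.7 CPM in PBS-treated muscle and 6.20 to 9.87 CPM in uninjured muscle. The 6 osteoclast markers summed to 4.15 to 42.8 CPM in gel muscle, 2.45 to 8.64 CPM in PBS-treated muscle and 3.00 to 5.002 CPM in uninjured muscle. Both lists overlapped between all groups. The highest osteoclast sums were in gel muscle, where Ctsk averaged 12.1 CPM and Acp5 9.82 CPM, beside 1.01 CPM for Calcr and 0.731 CPM for Oscar. In gel libraries 1 to 4 the osteoclast sums were 20.7, 29.2, 4.15 and 42.8 CPM. The macrophage markers of the same libraries summed to 813, 1129, 74.4 and 1251 CPM. The part of macrophages in the osteoclast sums was not tested. The part of red cells or osteoclasts in the Car2 levels was not tested.

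Car4 was lowest in gel muscle and highest in uninjured muscle. It encodes an enzyme held by a lipid anchor on the outer face of capillary endothelium and of the fibre membrane. Levels were 19.4, 5.77, 8.42 and 6.48 CPM in gel muscle, 17.4, 16.6, 19.2 and 14.5 CPM in PBS-treated muscle, and 26.5, 23.6, 32.1 and 28.6 CPM in uninjured muscle. Uninjured libraries lay above all others, and gel library 1 alone reached the PBS range. Means were 10.01 ± 6.33 CPM in gel muscle, 16.9 ± 1.98 CPM in PBS-treated muscle and 27.7 ± 3.58 CPM in uninjured muscle (SD, n = 4 each). The log2 fold change was -0.77 ± 0.31 (SE) for gel over PBS, -1.48 ± 0.31 for gel over uninjured and -0.71 ± 0.30 for PBS over uninjured. Gel library 1 set much of the gel value: without it the change was -1.31 over PBS and -2.01 over uninjured.

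The 8 endothelial markers summed to 599, 277, 211 and 304 CPM in gel libraries 1 to 4, to 489, 551, 305 and 327 CPM in PBS libraries 1 to 4 and to 370 to 461 CPM in uninjured muscle. Gel library 1 was the highest gel library for this list and for Car4. Relative to the mean log2 level of these markers, Car4 differed by -0.67 between gel and PBS, -1.33 between gel and uninjured and -0.66 between PBS and uninjured. On that scale gel and uninjured libraries did not overlap, and PBS libraries overlapped both other groups. The part of endothelial content in the Car4 levels was not tested.

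Car14 had its lowest mean in gel muscle and its highest in uninjured muscle. It encodes a transmembrane enzyme with its active site outside the cell or in the lumen, known from mouse muscle membranes. Levels were 31.8, 20.3, 40.3 and 17.8 CPM in gel muscle, 37.0, 52.1, 42.5 and 27.4 CPM in PBS-treated muscle, and 40.9, 52.3, 54.5 and 57.3 CPM in uninjured muscle. Gel and uninjured libraries did not overlap, though gel library 3 came within 1 CPM of uninjured library 1, and PBS libraries overlapped both. Means were 27.5 ± 10.5 CPM in gel muscle, 39.7 ± 10.3 CPM in PBS-treated muscle and 51.3 ± 7.18 CPM in uninjured muscle (SD, n = 4 each). On the log2 scale the fold change was -0.53 ± 0.25 (SE) for gel over PBS, -0.90 ± 0.25 for gel over uninjured and -0.37 ± 0.25 for PBS over uninjured. Without gel library 3, the gel-over-PBS value was -0.79, and without PBS library 4 the PBS-over-uninjured value was -0.23.

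Car8 was the least abundant member, and its gel libraries ranged from below all uninjured libraries up to the PBS range. Its product does not hydrate carbon dioxide and is known to bind an inositol trisphosphate receptor, a calcium release channel. Levels were 6.09, 2.46, 4.46 and 1.38 CPM in gel muscle, 6.12, 5.76, 4.81 and 5.64 CPM in PBS-treated muscle, and 4.09, 3.00, 4.06 and 2.85 CPM in uninjured muscle. PBS libraries lay above all uninjured libraries, while gel libraries 1 and 3 were near or within the PBS range and gel libraries 2 and 4 below the uninjured range. Means were 3.598 ± 2.09 CPM in gel muscle, 5.58 ± 0.555 CPM in PBS-treated muscle and 3.50 ± 0.667 CPM in uninjured muscle (SD, n = 4 each). The log2 fold change was 0.67 ± 0.35 (SE) for PBS over uninjured, -0.65 ± 0.34 for gel over PBS and 0.02 ± 0.35 for gel over uninjured. Single libraries moved the gel values: without gel library 1, gel over PBS was -1.04 and gel over uninjured was -0.36, and without gel library 4 they were -0.39 and 0.28. These rest on 38 to 107 counts per gel library, 84 to 124 per PBS library and 45 to 72 per uninjured library.

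Levels per kilobase of transcript put the members on a common scale. In CPM per kilobase, Car3 stood at 1803 ± 692 in gel muscle, 2788 ± 597 in PBS muscle and 3308 ± 270 in uninjured muscle (SD, n = 4 each). Car14 had 16.1 ± 6.12 in gel muscle, 23.3 ± 6.04 in PBS muscle and 29.99 ± 4.20 in uninjured muscle, and Car4 had 7.97 ± 5.04 in gel muscle, 13.5 ± 1.57 in PBS muscle and 22.1 ± 2.85 in uninjured muscle. The order of the mean levels was Car3, Car14, Car4, Car2 and Car8 in each group. Car2 stood at 3.79 ± 0.874 CPM per kilobase in gel muscle, 7.46 ± 1.28 in PBS muscle and 3.17 ± 0.158 in uninjured muscle. Car8 stood at 0.934 ± 0.544 CPM per kilobase in gel muscle, 1.45 ± 0.144 in PBS muscle and 0.908 ± 0.173 in uninjured muscle. In gel muscle the means of Car4 and its neighbours Car14 and Car2 lay within the summed SDs, which measure spread between libraries. Within every gel library the order was still Car14, Car4 and Car2, both in CPM and per kilobase.

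**Figure D2:**
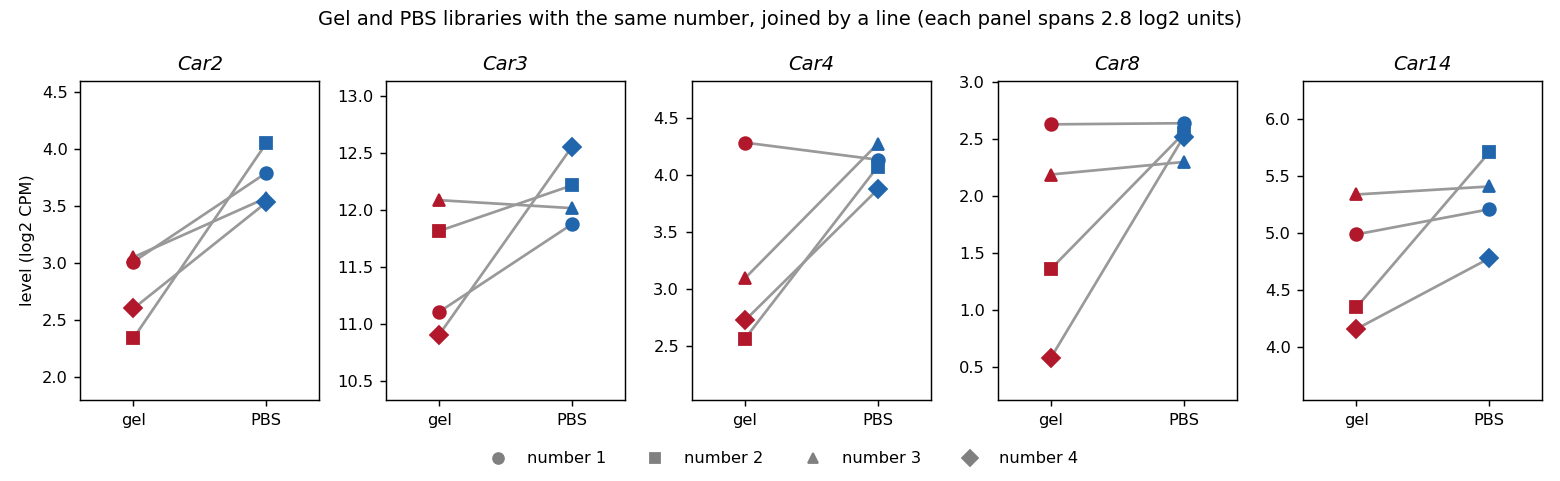
Level of each gene (log2 CPM) in gel muscle at left and PBS muscle at right, with lines joining libraries of the same number; each panel spans the same range in log2 units. Every line for Car2 climbs towards PBS, while number 1 for Car4 and number 3 for Car3 run slightly the other way.

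Gel and PBS libraries of the same number, read as legs of the same animal, were set against each other. For Car2 the gel leg minus the PBS leg was -0.78, -1.70, -0.52 and -0.92 log2 units in pairs 1 to 4, lower in 4 of 4. For Car14 it was -0.22, -1.35, -0.08 and -0.62, and for Car8 -0.01, -1.19, -0.11 and -1.95, so that the sign was shared but some pairs were near 0. Car3 gave -0.77, -0.40, 0.07 and -1.66, and Car4 gave 0.15, -1.51, -1.18 and -1.15, each with 1 pair on the other side of 0. Pair 4 had the widest gap for Car3 and Car8, and pair 2 for Car2, Car4 and Car14. With the animal as a block, the gel-over-PBS log2 fold changes were -0.99 for Car2, -0.68 for Car3, -0.92 for Car4, -0.81 for Car8 and -0.56 for Car14.

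Counting members whose libraries did not overlap between groups, PBS and uninjured muscle separated for 3 of 5 (Car2, Car4 and Car8), where 20.6% of the 13499 genes tested did so. Gel and PBS separated for 1 of 5 (Car2), against 20.1% of all genes, and gel and uninjured for 3 of 5 (Car3, Car4 and Car14), against 23% of all genes. Since the genes were chosen with these values known, nothing is read from the counts. The median log2 fold change of the 5 members was -0.65 for gel over PBS, -0.88 for gel over uninjured and -0.25 for PBS over uninjured, where the median of all genes tested was 0.04, 0.03 and 0. The comparisons share their groups, so these medians are not separate observations.

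**Figure D3:**
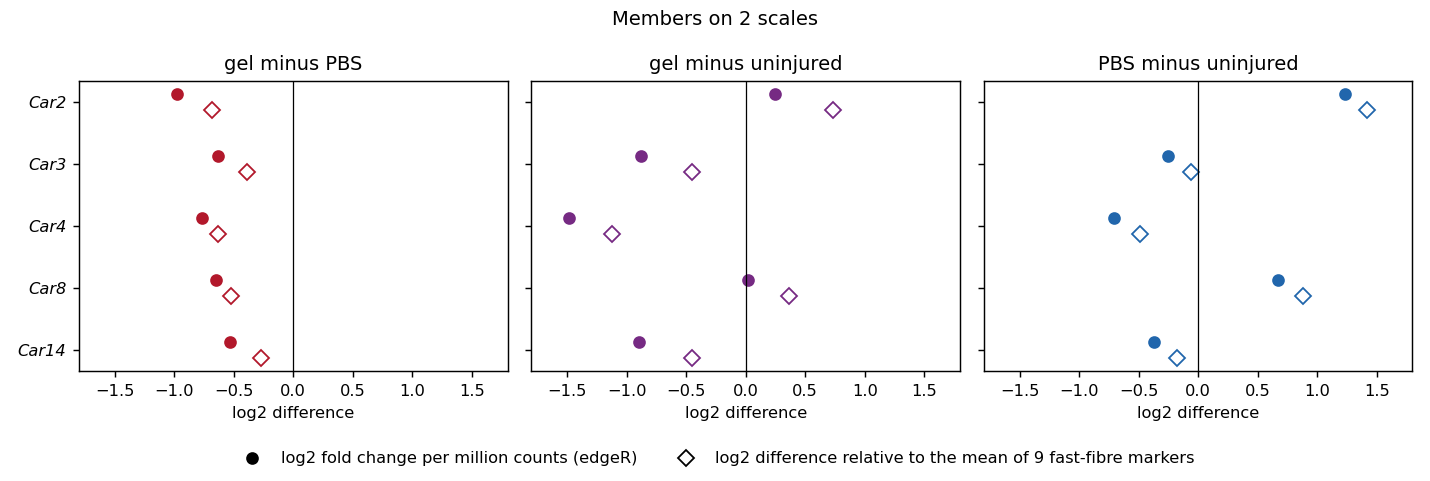
Log2 difference between groups for each of the 5 genes, as edgeR log2 fold change (filled circles) and relative to the mean of 9 fast-fibre markers (open diamonds), in panels for gel minus PBS, gel minus uninjured and PBS minus uninjured. Relative to fast-fibre markers, a mean shared by all members, every member moves up in every comparison. The gel-minus-uninjured values of Car3 and Car14 shrink to -0.45.

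By edgeR, 3 of the 9 fast-fibre markers fell and 1 rose in gel over PBS muscle, where 13.2% of all genes fell and 16.6% rose. In gel over uninjured muscle 5 fell, against 11.1% of all genes, and in PBS over uninjured muscle 2 fell, against 3.39%. The members were also set against these markers, a scale chosen after seeing the data. On that scale Car2 differed by 1.42 log2 units between PBS and uninjured muscle, -0.68 between gel and PBS and 0.73 between gel and uninjured, with no overlap in any of the 3. Car3 differed by -0.39 between gel and PBS, -0.45 between gel and uninjured and -0.06 between PBS and uninjured, and its groups overlapped throughout. Car14 behaved alike, with -0.27, -0.45 and -0.18 in the same comparisons and overlap in each. Car4 kept a difference of -1.12 between gel and uninjured, with overlap, and -0.49 between PBS and uninjured, without. Car8 was 0.88 higher in PBS than in uninjured muscle without overlap. The part of fibre content in the levels was not tested.

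The genes whose profile over the 12 libraries lay closest to each member were found by the root mean square difference of centred log2 CPM among 12467 genes. Closest to Car2 were Fads6, Cnnm4 and Ckmt2, the sarcomeric mitochondrial creatine kinase, at 0.172 to 0.212 log2 units, where the median gene lay at 0.658. Car3 had Nek7, Nt5dc3 and Kcnj11, the pore of the ATP-sensitive potassium channel, at 0.204 to 0.209. Car4 had Mmp28, C1qtnf9 and Lims2 at 0.190 to 0.234, and Car14 had Pfkfb1, Snrk and Map2k3os at 0.195 to 0.211. Map2k3os carries the name of an antisense transcript, whose reads may not be separable from those of its partner. Car8 had Maob, Ehhadh and Opcml at 0.278 to 0.295, the loosest neighbours of the 5. Among the members themselves, Car2 and Car8 at 0.441, Car3 and Car14 at 0.442 and Car4 and Car14 at 0.466 were closest, and Car2 and Car4 at 0.944 farthest apart.

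**Figure D4:**
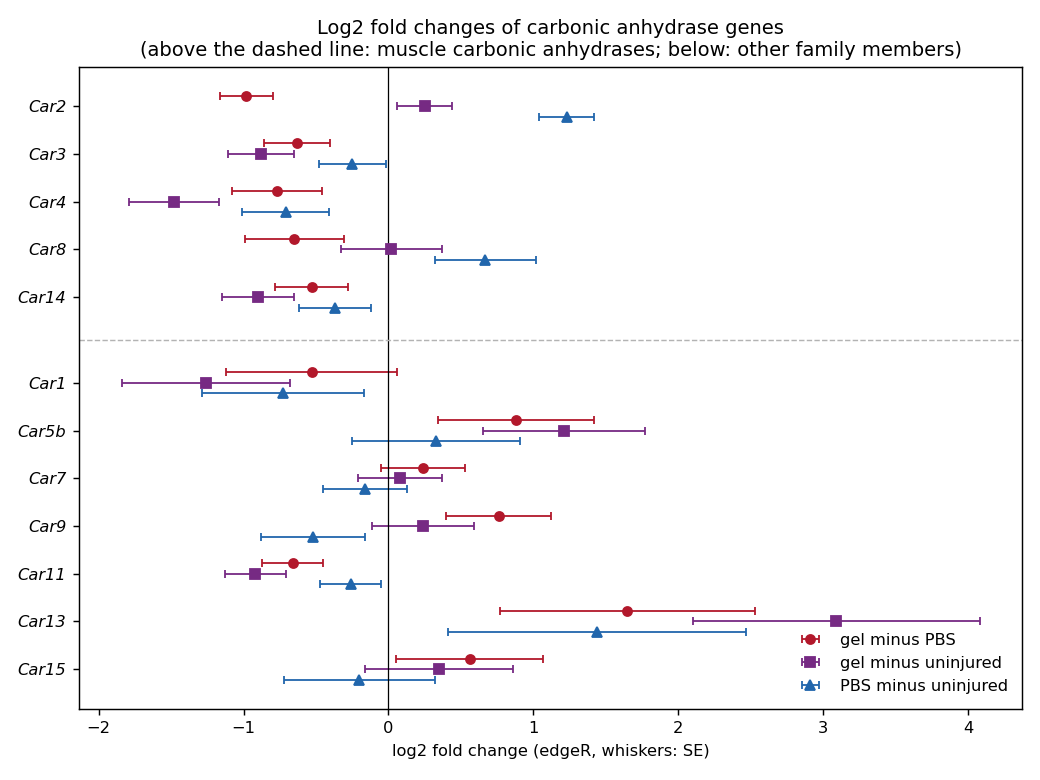
Log2 fold change with its standard error for every carbonic anhydrase gene kept by the filter, in each of the 3 comparisons. Car13 has the highest gel values with the widest errors, and Car11 lies below 0 in all 3.

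Of the 11 other carbonic anhydrase genes, 10 had a count and 7 could be tested. No gene of the 7 passed between PBS and uninjured muscle by edgeR's quasi-likelihood test, where 6.17% of all genes did (2.79% higher and 3.39% lower). That count was also 0 at an unadjusted p under 0.05 and by DESeq2 and limma voom. In gel over PBS muscle 1 gene fell, against 29.8% of all genes called (16.6% higher and 13.2% lower), and in gel over uninjured muscle 1 fell and 1 rose, against 25.6% (14.5% higher and 11.1% lower).

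Car11, like Car8 a family member without catalysis, was the one that fell. Levels were 12.1, 8.47, 16.0 and 6.30 CPM in gel muscle, 14.6, 17.8, 17.0 and 17.6 CPM in PBS-treated muscle, and 21.3, 20.2, 20.7 and 18.2 CPM in uninjured muscle. All gel libraries lay below all uninjured ones, with a log2 fold change of -0.92 ± 0.21 (SE) and an edgeR adjusted p of 0.00672. Against PBS the change was -0.66 ± 0.21 with an edgeR adjusted p of 0.032. Blocking on the animal ended that call (adjusted p = 0.0547) as did leaving out any of gel libraries 2 and 4 or PBS libraries 2, 3 and 4 (adjusted p = 0.0592 to 0.0893). PBS over uninjured was -0.26, with an edgeR adjusted p of 0.51.

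Car13, a cytosolic isoform, rose in gel over uninjured muscle by 3.09 ± 0.99 (SE) on the log2 scale, with an edgeR adjusted p of 0.0359. Its counts were 30, 90, 4 and 90 in gel libraries, 44, 8, 2 and 4 in PBS libraries, and 6, 4, 0 and 8 in uninjured libraries. All of these were even numbers, so they may not stand for as many separate fragments. Gel libraries 1, 2 and 4 and PBS library 1 stood apart from the rest. The call was lost without gel library 2 or 4 or without any uninjured library (adjusted p = 0.0554 to 0.0932) and by limma voom (adjusted p = 0.112). Between gel and PBS the change was 1.65 ± 0.88 with an edgeR adjusted p of 0.17, and it passed without gel library 3 (2.00, adjusted p = 0.0446) or without PBS library 1 (3.13, adjusted p = 0.025). Gel libraries 1, 2 and 4, where Car13 was high, were also those with 813 to 1251 CPM of macrophage markers. PBS library 1 had 39.5 CPM of them, beside 39.7 CPM in PBS library 4. The 6 fibroblast markers summed to 2970, 2539, 487 and 3007 CPM in gel libraries 1 to 4. In PBS libraries 1 to 4 they summed to 1034, 447, 407 and 488 CPM, and in uninjured muscle to 472 to 756 CPM. The part of macrophages or fibroblasts in the result was not tested.

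Of the remaining isoforms, Car7 averaged 5.19 CPM in gel muscle, 4.40 CPM in PBS-treated muscle and 4.90 CPM in uninjured muscle. The member Car8 averaged 3.60, 5.58 and 3.50 CPM in the same groups. The others averaged at most 1.72 CPM in any group. Gel-over-PBS log2 fold changes were -0.53 for Car1, a red-cell isoform, 0.88 for Car5b, a mitochondrial isoform, 0.24 for Car7, a cytosolic isoform of muscle and brain, 0.76 for the hypoxia-induced Car9 and 0.56 for Car15. None of these 5 passed in any comparison by edgeR, DESeq2 or limma voom. At an unadjusted p under 0.05 by edgeR, Car1 (-1.26) and Car5b (1.21) stood out in gel over uninjured muscle, with adjusted p of 0.12 and 0.126. Car5a had 3 counts, all in gel library 4, Car6 had 4, 2, 0 and 4 counts in gel libraries and 0 in all others, Car12 was too low to be tested, and Car10 had 0 counts.

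**Figure D5:**
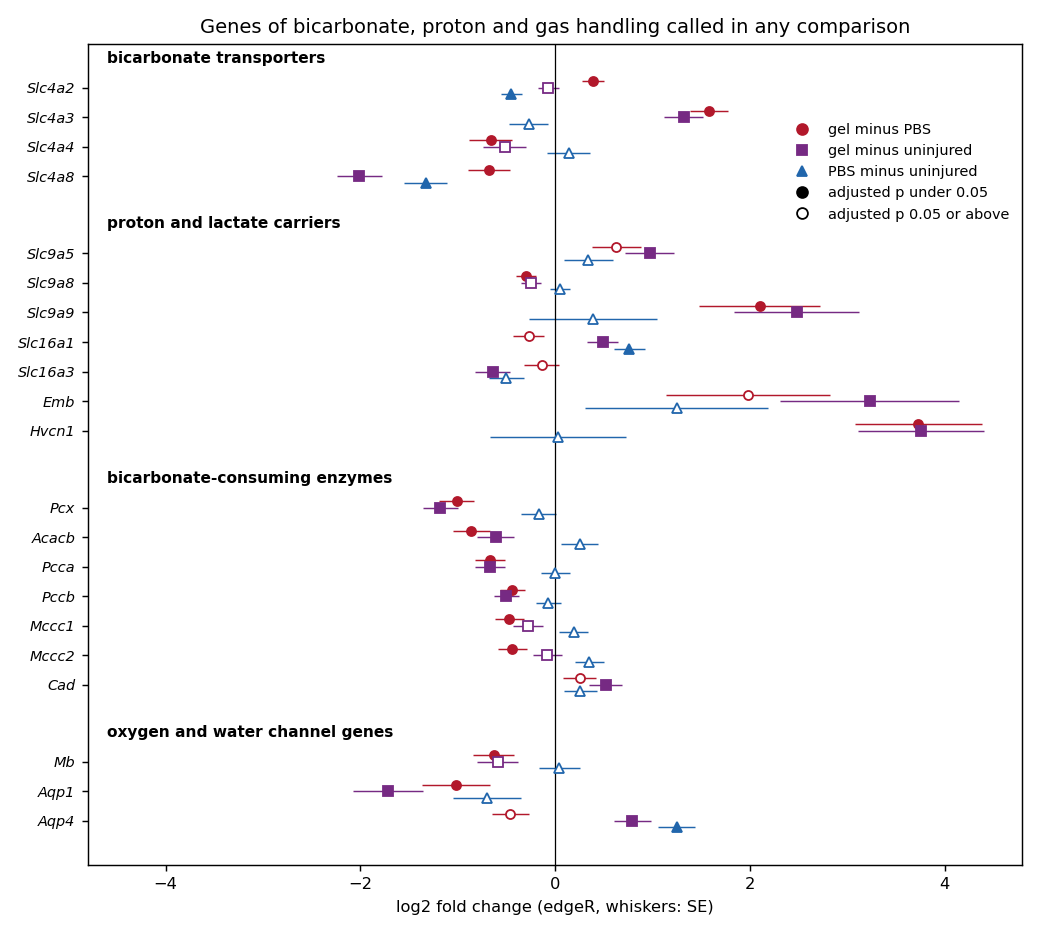
Log2 fold change with its standard error for the related genes that passed in any of the 3 comparisons, grouped by role. Filled points have an edgeR adjusted p under 0.05 and open points do not; Slc4a3 and Hvcn1 lie to the right and Pcx to the left in both gel comparisons.

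Carbonic anhydrases hand bicarbonate to transporters and enzymes, and 40 of 53 such related genes and carbonic anhydrases outside the 5 members could be tested. Of these, 4 passed between PBS and uninjured muscle, 16 between gel and PBS and 17 between gel and uninjured (42.5%), beside 6.17%, 29.8% and 25.6% of all genes. With the animal as a block, gel and PBS differed for 9 of them in place of 16.

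Of 6 bicarbonate transporters tested, Slc4a3, an exchanger of chloride for bicarbonate, rose in gel muscle. It averaged 27.6 ± 4.21 CPM in gel muscle, 9.23 ± 3.09 CPM in PBS-treated muscle and 11.1 ± 1.31 CPM in uninjured muscle (SD, n = 4 each). Its log2 fold change was 1.58 ± 0.20 (SE) over PBS, with an edgeR adjusted p of 0.000813, and 1.32 ± 0.20 over uninjured, with an edgeR adjusted p of 0.000448. Slc4a8, a sodium-driven exchanger of chloride and bicarbonate, fell in both injected groups, averaging 5.20 ± 1.77 CPM in gel muscle, 8.28 ± 1.58 CPM in PBS-treated muscle and 20.8 ± 2.36 CPM in uninjured muscle (SD, n = 4 each). Its log2 fold change was -2.01 ± 0.23 for gel over uninjured, with an edgeR adjusted p of 6.35e-05, and -1.33 ± 0.22 for PBS over uninjured, with an edgeR adjusted p of 0.00277. For gel over PBS it was -0.68, with an edgeR adjusted p of 0.0323 that became 0.0853 with the animal as a block.

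Slc4a2, another chloride-bicarbonate exchanger, fell by 0.45 on the log2 scale in PBS over uninjured muscle (edgeR adjusted p = 0.0276) and rose by 0.39 in gel over PBS muscle (edgeR adjusted p = 0.0195). Slc4a4, a sodium-bicarbonate cotransporter, fell by 0.66 in gel over PBS muscle (edgeR adjusted p = 0.0352). With the animal as a block, the gel-over-PBS adjusted p was 0.0711 for Slc4a2 and 0.0617 for Slc4a4. Left-out libraries also ended these calls: Slc4a2 over PBS without gel 2 or 4 or PBS 1 or 3, Slc4a2 over uninjured without PBS 1, 2 or 3 or uninjured 2, 3 or 4, Slc4a4 without gel 1 or 4 or PBS 1, 2 or 3, and Slc4a8 over PBS without gel 2 or 4 or PBS 1 or 2. Across them the adjusted p was 0.0535 to 0.104.

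Of the 8 enzymes tested that consume bicarbonate, 6 fell in gel over PBS muscle and none rose, where 13.2% of all genes fell. The list's median log2 fold change was -0.45, beside -0.34 for the 9 fast-fibre markers, of which 3 fell, and 4.63 for the 8 macrophage markers, of which 8 rose; their part in the result was not tested. The pyruvate carboxylase gene Pcx, which feeds the citrate cycle, averaged 22.7 ± 6.45 CPM in gel muscle, 45.7 ± 8.32 CPM in PBS-treated muscle and 51.5 ± 5.69 CPM in uninjured muscle (SD, n = 4 each). It changed by -1.01 ± 0.18 over PBS on the log2 scale (SE), with an edgeR adjusted p of 0.00214. Acacb, the acetyl-CoA carboxylase that restrains fatty acid entry into mitochondria, averaged 151 ± 56.3 CPM in gel muscle, 274 ± 28.7 CPM in PBS-treated muscle and 230 ± 8.38 CPM in uninjured muscle (SD, n = 4 each). Its log2 fold change over PBS was -0.86 ± 0.19, with an edgeR adjusted p of 0.00507. Pcca, a subunit of propionyl-CoA carboxylase, changed by -0.67 (edgeR adjusted p = 0.00507) and Pccb, the partner subunit, by -0.44 (edgeR adjusted p = 0.0199). The methylcrotonyl-CoA carboxylase genes Mccc1 and Mccc2 changed by -0.47 and -0.44 (edgeR adjusted p = 0.0317 and 0.04).

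The calls of Pcx, Acacb and Pcca between gel and PBS held when any single library was left out. Those of Pccb ended without gel library 2 or 4, those of Mccc1 without gel 2 or 4 or PBS 1, 2 or 3, and those of Mccc2 without any of 9 libraries (all except gel 3, uninjured 1 and uninjured 4). For Mccc2 the block gave an adjusted p of 0.0617. In gel over uninjured muscle Pcx (-1.18), Pcca (-0.67), Pccb (-0.50) and Acacb (-0.61) fell with edgeR adjusted p of 0.000481, 0.00504, 0.0105 and 0.0291. Cad, which uses bicarbonate to begin pyrimidine synthesis, rose by 0.52 (edgeR adjusted p = 0.0336). The Acacb call ended without gel 1, 2 or 4 or any uninjured library, and the Cad call without gel 2 or 4, PBS 4 or uninjured 2, 3 or 4. In the edgeR fit to all libraries no enzyme of the list passed between PBS and uninjured muscle. There 1 had an unadjusted p under 0.05, and DESeq2 and limma voom called 0. A replicate block and leaving out gel library 3 each called 1.

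Among 13 proton and lactate carriers tested, the voltage-gated proton channel Hvcn1, best known from white blood cells, rose most in gel muscle. It averaged 14.1 ± 8.35 CPM in gel muscle, 1.07 ± 0.486 CPM in PBS-treated muscle and 1.04 ± 0.642 CPM in uninjured muscle (SD, n = 4 each). The log2 fold change was 3.73 ± 0.65 (SE) over PBS, with an edgeR adjusted p of 0.00282, and 3.76 ± 0.65 over uninjured, with an edgeR adjusted p of 0.00208. Hvcn1 stood at 2.75 to 20.4 CPM in gel libraries, and the macrophage markers moved with it, at 74.4 to 1251 CPM in those libraries; their part in the result was not tested. The endosomal sodium-proton exchanger Slc9a9 rose by 2.10 over PBS (edgeR adjusted p = 0.0232) and 2.48 over uninjured (edgeR adjusted p = 0.0133), the first call ending without gel 2 or 4 or PBS 2 or 3. Slc9a5, another sodium-proton exchanger, rose by 0.97 over uninjured (edgeR adjusted p = 0.0107). Slc9a8, a Golgi exchanger, fell by 0.30 over PBS (edgeR adjusted p = 0.0308), which the block took to 0.124 and which also ended without gel 1 or 4 or PBS 1 or 4.

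The lactate carrier Slc16a1 averaged 29.6 ± 5.63 CPM in gel muscle, 35.6 ± 7.92 CPM in PBS-treated muscle and 21.1 ± 1.08 CPM in uninjured muscle (SD, n = 4 each). It rose by 0.76 ± 0.16 (SE) on the log2 scale in PBS over uninjured muscle, with an edgeR adjusted p of 0.0114 that held without any single library. Over uninjured, gel muscle rose by 0.49 (edgeR adjusted p = 0.0355). That call ended in 8 of the leave-outs (gel 2 or 3, PBS 2 or 4 or any uninjured library) and by limma voom (adjusted p = 0.0595). Slc16a3, the lactate exporter of fast fibres, fell by 0.64 in gel over uninjured muscle (edgeR adjusted p = 0.019), a call that ended without gel 4, uninjured 2 or uninjured 3. Emb, a partner protein of lactate carriers, rose by 3.23 over uninjured (edgeR adjusted p = 0.0245), which ended without gel 2 or 4 or any uninjured library and by limma voom (adjusted p = 0.118). Emb stood at 3.87, 11.5, 0.733 and 11.8 CPM in gel libraries 1 to 4, and Slc9a9 at 3.93, 6.95, 2.44 and 8.81 CPM, with gel library 3 lowest for each as it was for the macrophage markers. Their part in these results was not tested.

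The inositol trisphosphate receptors, to which the Car8 product binds, were tested as 3 genes. None passed by edgeR in any comparison in the fit to all libraries. The replicate block called 1 between PBS and uninjured muscle, and RLE scaling and leaving out gel library 3 each called 1 between gel and uninjured. At an unadjusted p under 0.05 there were 2 between PBS and uninjured muscle, 0 between gel and PBS and 2 between gel and uninjured, and DESeq2 called 0, 0 and 1 and limma voom 0 in each.

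Of the genes for oxygen storage and water passage, the fibre water channel gene Aqp4 rose with PBS. It averaged 40.5 ± 8.38 CPM in gel muscle, 55.7 ± 13.4 CPM in PBS-treated muscle and 23.4 ± 4.56 CPM in uninjured muscle (SD, n = 4 each). The log2 fold change was 1.25 ± 0.19 (SE) for PBS over uninjured, with an edgeR adjusted p of 0.00173, and 0.79 ± 0.19 for gel over uninjured, with an edgeR adjusted p of 0.00793. Aqp1, the capillary water channel gene, averaged 157 ± 102 CPM in gel muscle, 318 ± 67.0 CPM in PBS-treated muscle and 516 ± 22.7 CPM in uninjured muscle (SD, n = 4 each). It fell by 1.72 ± 0.36 in gel over uninjured muscle, with an edgeR adjusted p of 0.00549. Over PBS it fell by 1.02, with an edgeR adjusted p of 0.0474 that was lost in 10 of 12 leave-outs (0.0583 to 0.115). It held without PBS library 4 and without gel library 1, where the change was -1.54. Mb, the myoglobin gene, averaged 3782 ± 1212 CPM in gel muscle, 5835 ± 1273 CPM in PBS-treated muscle and 5683 ± 605 CPM in uninjured muscle (SD, n = 4 each). It fell by 0.63 over PBS (edgeR adjusted p = 0.0378), which the block took to 0.0612 and which ended without gel 2 or 4, PBS 2 or 3 or uninjured 3.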

How the data were processed

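RNA-seq was deposited by the authors as raw counts of reads per gene symbol for 12 mouse tibialis anterior libraries. The submitters' processing notes name STAR, mm39 and edgeR, without versions. The sources used here give no counting program, strand setting or annotation, so reads shared by overlapping or antisense genes cannot be separated. All value columns were matched to libraries (0 left over), and totals of 15626086 to 22182483 counts set the precision. All counts of Car13 and of Emb were even numbers, so a count may not stand for a separate fragment. The precision may then be lower than the totals imply. No replicates agreed within sampling noise (chi-square per gene of at least 6.5).

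edgeR 4.0.16 (R 4.3.3) kept 13499 genes with filterByExpr, scaled them by TMM and fitted a robust quasi-likelihood model to the 3 groups, with 9 residual degrees of freedom. Adjusted p is Benjamini-Hochberg over all genes tested, threshold 0.05. The same fit supplied fold changes with SE for the 5 members, without their p. CPM are TMM-scaled, with a prior count of 2 before taking log2. The p-values measure the spread between these libraries. Transcript lengths (longest coding transcript) and coding sequence came from GENCODE M21, on build GRCm38, so no coordinates are given, and the zinc-site stretch is shown for Car2, Car3, Car4 and Car14. The script was tested on simulated data.

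The members and gene lists were chosen with earlier results of these data known. Named genes were the members, the other carbonic anhydrases with a count, list genes past the threshold, and the 3 closest in profile to each member with a mean of at least 1 CPM. Gel and PBS libraries of the same number were treated as paired because their deposited names share what was read as an animal number, which the labels do not state in words. Their deviations from the group means correlated at 0.14, -0.06, 0.31 and 0.08. Alternatives were DESeq2 1.42.0, limma 3.58.1 voom, RLE scaling, no filter on low counts, the compared groups alone, a replicate block, each library left out, and, chosen after seeing the data, levels relative to fast-fibre or endothelial markers.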

Additional observations from a re-analysis of the deposited data

Results flagged for a closer look

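Car13 in PBS library 1 lay far from the other PBS libraries, at 2.17 CPM against 0.435, 0.114 and 0.240 CPM. It was the only such library among 36 groups of 4 examined for the carbonic anhydrase genes, and chance marks about 1 group in 20.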

How the results depend on the processing

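Fold changes of the 5 members kept their sign in every alternative run except Car8 in gel over uninjured, which lay near 0 (-0.36 to 0.28 in leave-outs, -0.15 with the replicate block and -0.30 by limma voom). Of the values under the alternatives, 6 moved by more than the replicate spread, all of them relative to fast-fibre markers. These were Car2 at 1.42 (PBS over uninjured), -0.68 (gel over PBS) and 0.73 (gel over uninjured), Car3 at -0.45 (gel over uninjured), Car4 at -0.49 (PBS over uninjured) and Car14 at -0.45 (gel over uninjured). That scale subtracts the same marker mean from every member, so which values moved depends on each member's own spread. It also uses mean log2 CPM in place of edgeR fold changes. Genes called between PBS and uninjured numbered 833 in the fit used, 1415 by DESeq2, 2339 with those groups alone and 2539 with a replicate block. Between gel and PBS they numbered 4022, and 2559 with those groups alone. Related genes called between PBS and uninjured numbered 4, 8 with those groups alone and 9 with the replicate block. Between gel and PBS they numbered 16, 6 and 9 in the same order. For comparisons with uninjured muscle the block rests on title numbers only, which pair no animals. Leaving out 1 library gave 378 to 1693 genes between PBS and uninjured, 2456 to 5962 between gel and PBS and 2275 to 5341 between gel and uninjured, and 3 to 7, 5 to 24 and 11 to 25 related genes. Among the other carbonic anhydrases and the related genes called, the results that changed sign did so in leave-outs: Car7 (-0.06 to 0.40 gel over PBS, -0.22 to 0.31 gel over uninjured, -0.28 to 0.09 PBS over uninjured), Car5b (-0.06 to 0.62), Car13 (-0.05 to 1.88) and Car15 (-0.76 to 0.18) in PBS over uninjured, and Car1 (-0.89 to 0.08) in gel over PBS. The cause was not tested. Fitting the compared groups alone ended the gel-over-PBS calls of Aqp1, Car11, Mb, Mccc1, Mccc2, Pccb, Slc4a2, Slc4a4, Slc4a8 and Slc9a8 (edgeR adjusted p = 0.0585 to 0.109) and the gel-over-uninjured call of Acacb (0.0591). Without a filter on low counts the calls of Aqp1 and Slc9a8 over PBS (0.0865 and 0.0575) and of Cad, Car13 and Emb over uninjured (0.0567, 0.0648 and 0.0537) ended. With profiles scaled to unit SD, the nearest genes shared with the lists given were 2 of 3 for Car2 and Car4, 1 for Car8 and Car14 and 0 for Car3. Low counts limit Car8 and Car13.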
